A study of Homo sapiens with 10 samples.

Results

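The genes described here are 37 members of the homologous recombination and Fanconi repair pathways, out of 58302 genes in the expression table. They were chosen by name from textbook pathway membership, with no expression value in the rule, though earlier results of these data were known. Each of the 37 matched 1 row of the table. Expression was read by RNA sequencing in a pair of human cell lines from esophageal squamous carcinoma, collected 48 h after a small interfering RNA (siRNA) was introduced. The siRNA siSHIP2 targets INPPL1, which encodes the lipid phosphatase SHIP2, and siCT is a non-targeting control. KYSE-410 had 3 siSHIP2 and 3 siCT libraries, and KYSE-30 had 2 siSHIP2 and 2 siCT libraries. Both groups of a line had been transfected, no untransfected group was used, and each line is a single model of the tumour. Every siSHIP2 library used here received the same siRNA against INPPL1, so effects of its sequence on other transcripts cannot be told apart from loss of SHIP2. Another INPPL1 siRNA named for KYSE-410 was not used here. Since it is not stated that numbered replicates grew apart, the p-values reflect the spread among libraries alone, which may be technical.

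Homologous recombination repairs a DNA break by copying the sister chromatid. MRE11, RAD50 and NBN with RBBP8 (CtIP) trim the ends, BRCA1-BARD1, PALB2 and BRCA2 prepare the exposed strand for the search for its match, and a set of paralogous proteins (RAD51B, RAD51C, RAD51D, XRCC2 and XRCC3) assists them. The Fanconi pathway handles crosslinks between the strands: a core complex attaches ubiquitin to FANCD2 and FANCI, which call in nucleases. BLM with RMI1 and RMI2 takes joined molecules apart, MUS81-EME1 and SLX4 cut them, and ATM, ATR and the checkpoint kinases CHEK1 and CHEK2 hold the cell cycle meanwhile. Many of these genes are expressed most in S and G2 phase, when a sister chromatid is present.

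Values are CPM (the share of a library's counts, scaled to a common total), and fold changes are differences of log2(CPM + 1) between group means, fitted with limma over all 10 libraries. A gene is called when its p-value, adjusted by the Benjamini-Hochberg method over the 20466 genes that reached 0.5 CPM in 2 or more libraries, is under 0.05. The targeted gene INPPL1 lies on chromosome 11 (72223701 to 72239105 on the plus strand of GRCh38, the build of all gene positions given). Its transcript measured 44.7, 37.3 and 39.1 CPM in the KYSE-410 siSHIP2 libraries, against 106.9, 107.8 and 109.2 CPM with siCT (95% interval of the log2 change -1.54 to -1.26, SE 0.067, limma adjusted p = 5.81e-10). In KYSE-30 it stood at 23.2 and 24.5 CPM with siSHIP2, against 39.9 and 36.2 CPM with siCT (log2 -0.65, SE 0.082, limma adjusted p = 0.00077). The knockdown left 37.4% of the control level in KYSE-410 and 62.9% in KYSE-30. With replicate 1 of either KYSE-30 group left out the KYSE-30 value was log2 -0.61 to -0.58 (limma adjusted p = 0.0585 to 0.0607), and with that line fitted alone limma gave an adjusted p of 0.336. All 37 members passed the filter in the fit, and the lowest value of any member in any library was 4.40 CPM, above the floor of 0.15 CPM (3 of the scaled counts). Between replicates of a group the chi-square per gene was 2.77 to 5.57, except that KYSE-410 siSHIP2 replicate 1 stood apart from replicates 2 and 3 of its group, at 9.67 and 7.99. Markers of squamous cells summed to 227.5 to 608.4 CPM per library, with all 8 above 0 in each group. In KYSE-30 the fibroblast sum was at most 7.10 CPM, with DCN and LUM at 0 in both groups, and in KYSE-410 it was 92.2 to 98.5 CPM with siSHIP2 and 105.6 to 128.5 CPM with siCT, with 3 of 8 genes at 0.5 CPM or more. Leukocyte markers summed to at most 24.5 CPM and endothelial markers to at most 7.24 CPM.

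Promoter sequence was examined because S phase genes are classically driven by E2F and mitotic genes by the CHR element (cell cycle genes homology region) together with CCAAT boxes. RefSeq promoters (GRCh38.p14, 250 bases before to 50 after 1 start per gene) were found for 33 of the 37 members. An E2F word (TTTCCCGC, TTTCGCGC, TTTGCCGC or TTTGGCGC, either strand) was present in 5 of the 33, or 15.2%, against 3.3% of all 27305 promoters and 14 of 19 S phase promoters. These members were XRCC2, FANCA, FANCC, FANCD2 and TOPBP1. A CHR word (TTTGAA or TTCGAA, either strand) was present in 3 members, FANCC, BRIP1 and ATM, or 9.1%, against 16.6% of all promoters and 10 of 16 mitotic promoters. CCAAT (either strand) was present in 14 members, or 42.4%, against 35.7% of all promoters and 13 of 16 mitotic promoters. Of 22 promoters of recombination genes outside the members, 6 held an E2F word, 4 a CHR word and 13 CCAAT. Of 17 promoters of Fanconi and crosslink genes outside the members, 1 held an E2F word, 2 a CHR word and 5 CCAAT. A match describes letters in this window only, and other starts of a gene were not scanned.

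For 21 of the 33 members the RefSeq start lay within 100 bases of the gene's 5′ end in GENCODE 29. The 120 bases before the start are shown for those called members with the largest change in KYSE-410 that met this limit, 4 of the 6 largest. E2F matches of FANCA and FANCD2 follow with the bases around them. Sequences run 5′ to 3′ on the gene's strand, and capitals mark a CCAAT box or, in FANCA and FANCD2, an E2F word that reads on the opposite strand.
BARD1: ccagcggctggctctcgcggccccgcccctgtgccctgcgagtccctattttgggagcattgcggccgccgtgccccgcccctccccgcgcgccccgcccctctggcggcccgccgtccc
FANCF: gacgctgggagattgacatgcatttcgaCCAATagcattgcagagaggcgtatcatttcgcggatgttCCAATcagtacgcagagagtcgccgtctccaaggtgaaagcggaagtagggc
BRCA1: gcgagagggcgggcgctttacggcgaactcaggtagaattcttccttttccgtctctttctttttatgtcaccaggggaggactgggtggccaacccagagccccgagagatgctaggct
BRCA2: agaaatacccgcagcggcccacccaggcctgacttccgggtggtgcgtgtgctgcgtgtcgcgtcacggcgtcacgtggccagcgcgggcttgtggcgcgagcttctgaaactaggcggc
FANCA: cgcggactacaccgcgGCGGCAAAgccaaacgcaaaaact
FANCD2: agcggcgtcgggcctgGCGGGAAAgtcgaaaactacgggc
These stretches are chr2:214809684-214809803 (minus strand) for BARD1, chr11:22625824-22625943 (minus) for FANCF and chr17:43170328-43170447 (minus) for BRCA1. They are chr13:32315388-32315507 (plus) for BRCA2, chr16:89816796-89816835 (minus) for FANCA and chr3:10026419-10026458 (plus) for FANCD2. FANCF carried 2 CCAAT boxes in its stretch, while those of BARD1, BRCA1 and BRCA2 held none of the words searched. The limit of 100 bases compares annotated starts only and does not show which start these cells used. The BRCA1 stretch lies beyond the outer end of a gene annotated over 125951 bases, and starts inside that span were not scanned.

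The first question was how the repair genes behaved when SHIP2 was depleted in KYSE-410. With siSHIP2, 11 of the 37 members rose and 6 fell, against 30.6% of all tested genes called higher and 19.3% called lower, so the shares of 29.7% and 16.2% lay near the background. Without siSHIP2 replicate 1 there were 9 higher and 5 lower members, against 6361 higher and 4023 lower of all 20466 tested genes. With all libraries those all-gene counts were 6256 and 3949. The median member changed by log2 0.02, against 0.07 over all tested genes. The mediators of strand exchange split: BRCA1, PALB2 and BRCA2 rose while BARD1, the obligate partner of BRCA1, fell. The resection genes NBN and RAD50 fell, the nuclease genes MUS81 and SLX4 rose, and the Fanconi core complex was called at 1 of its 7 genes, FANCF. Summed over the 37 members, 1833.8 to 1954.0 CPM were measured with siSHIP2, overlapping 1812.1 to 1877.0 CPM with siCT.

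The balance of higher and lower calls moved with the scaling. Higher calls were 64.7% of the 17 on the deposited scale, with 11 higher and 6 lower. TMM scaling gave 6 higher and 9 lower, relative log expression 6 and 10, and upper quartile scaling 8 and 9. All tested genes turned the same way: 61.3% of their calls were higher on the deposited scale, 43.6% with TMM, 44.9% with relative log expression and 48.7% with upper quartile scaling. The members' median then lay at -0.10, -0.09 and -0.06, and the median of all tested genes at -0.01, -0.01 and 0.01. On the whole numbers recovered from the CPM steps, edgeR called 7 higher and 9 lower, and DESeq2 6 and 9. All tested genes had 4477 higher and 5115 lower with edgeR, and 3590 and 4616 with DESeq2. Calls of 10 members held with the same sign in each of the 20 alternatives to this comparison: BRCA1, BRCA2, PALB2, RAD51B, FANCF and MUS81 higher, and BARD1, ATRIP, FANCD2 and NBN lower. How many of all tested genes held likewise was not counted, so these 10 have no background beside them. All tested genes had 10205 calls on the deposited scale and 8206 with DESeq2.

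**Figure D1:**
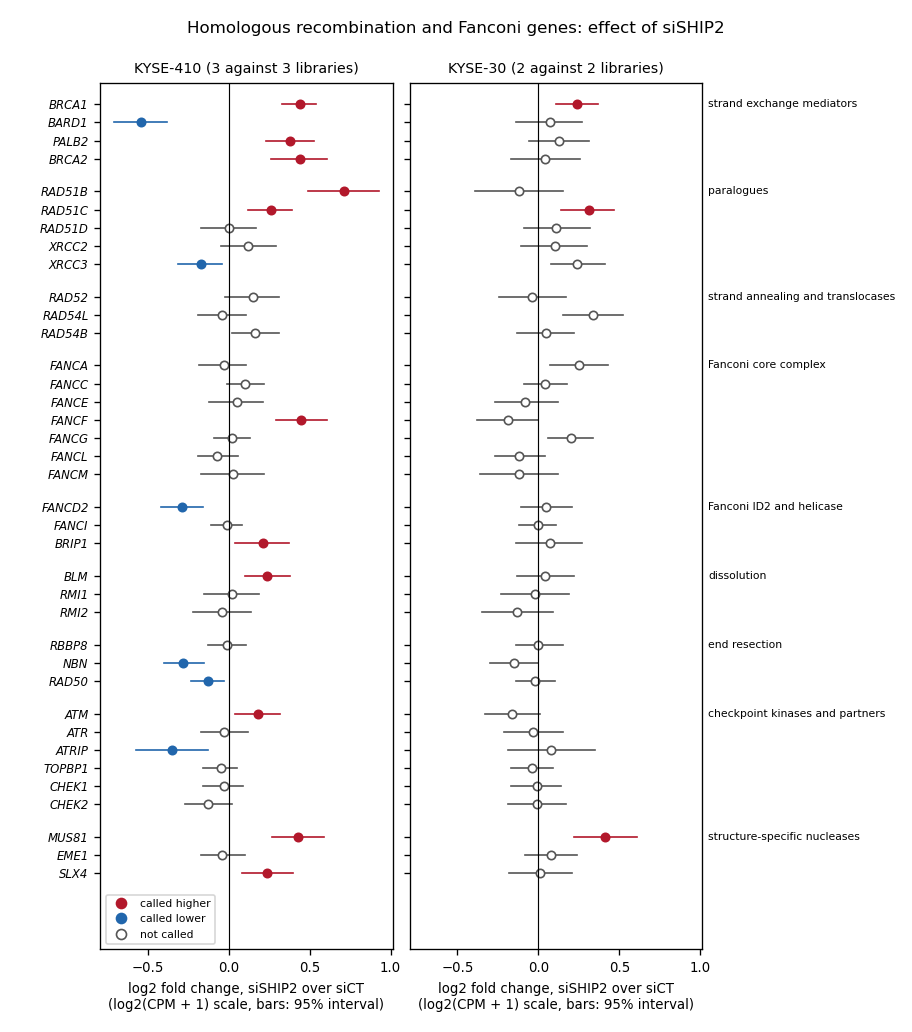
Log2 fold change of siSHIP2 over siCT for the 37 members, grouped by role, with 95% intervals, in KYSE-410 (left) and KYSE-30 (right). Filled red and blue points are called higher and lower, open points are not called: 11 higher and 6 lower in KYSE-410, 3 higher in KYSE-30.

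Among the mediators of strand exchange, BRCA1 (chromosome 17, 43044295 to 43170245, minus strand), the ubiquitin ligase that promotes recombination, had 123.1, 120.5 and 117.3 CPM with siSHIP2, against 84.8, 91.3 and 89.6 CPM with siCT. Every siSHIP2 library lay above every siCT library (log2 0.44, SE 0.050, limma adjusted p = 2.88e-06). BARD1 (chromosome 2, 214725646 to 214809711, minus strand), whose protein stabilises BRCA1, had 21.7, 17.3 and 20.5 CPM with siSHIP2, against 29.6, 30.2 and 28.0 CPM with siCT. It went the other way without overlap, to 67.6% of its control mean (log2 -0.54, SE 0.079, limma adjusted p = 2.96e-05). Their protein products act as a heterodimer, and the transcripts were at 120.3 ± 2.88 (BRCA1) and 19.8 ± 2.28 CPM (BARD1) with siSHIP2 and at 88.6 ± 3.37 and 29.3 ± 1.13 CPM with siCT (SD, n = 3).

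PALB2 (chromosome 16, 23603160 to 23641310, minus strand), the bridge between BRCA1 and BRCA2, had 30.5, 28.9 and 27.0 CPM with siSHIP2, against 21.2, 23.8 and 20.8 CPM with siCT. All siSHIP2 values were above the siCT values (log2 0.38, SE 0.071, limma adjusted p = 0.000323). BRCA2 (chromosome 13, 32315474 to 32400266, plus strand), a mediator of strand exchange at the break, had 90.7, 82.7 and 73.8 CPM with siSHIP2, against 56.9, 68.0 and 57.1 CPM with siCT. The groups did not overlap, and siSHIP2 replicate 1 was the highest (log2 0.44, SE 0.083, limma adjusted p = 0.000365).

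The paralogues, which work in small complexes with each other, also divided. RAD51B (chromosome 14, 67819779 to 68730218, plus strand) had 7.65, 8.25 and 9.19 CPM with siSHIP2, against 4.75, 4.95 and 4.40 CPM with siCT. This was the largest change among the members in KYSE-410, to 177.9% of the control mean, with no overlap (log2 0.71, SE 0.10, limma adjusted p = 3.06e-05). RAD51C had 28.1, 28.8 and 30.3 CPM with siSHIP2, against 24.0, 22.6 and 25.8 CPM with siCT, again without overlap (log2 0.26, SE 0.064, limma adjusted p = 0.00293). The RAD51C rise ended with TMM scaling, relative log expression and DESeq2, where its log2 change was as low as 0.14. XRCC3 had 38.2, 41.6 and 38.1 CPM with siSHIP2, against 46.2, 41.4 and 45.6 CPM with siCT, with overlapping libraries (log2 -0.17, SE 0.064, limma adjusted p = 0.035). Its call ended when siCT replicate 1 or 3 or siSHIP2 replicate 1 or 3 was left out (limma adjusted p = 0.0855 to 0.138). Of its exonic bases 76.7% overlap exons of KLC1 on the opposite strand, and KLC1 stood at 128.7 CPM with siSHIP2 and 111.9 CPM with siCT. RAD51D (log2 0.00) and XRCC2 (0.12) were not called.

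In the group of the annealing protein RAD52 and the translocases RAD54L and RAD54B, motors that run along DNA, no member passed the limma test (1 higher, RAD54B, at an unadjusted p under 0.05, and 0 with edgeR and DESeq2). Their log2 changes were 0.15, -0.04 and 0.16, with limma adjusted p = 0.13, 0.684 and 0.0611. RAD54B was the member nearest to the threshold among those not called, and without siSHIP2 replicate 3 its limma adjusted p was 0.0409 (log2 0.20). Its exons overlap those of FSBP over 59.1% of their length.

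Of the Fanconi core complex, FANCF (chromosome 11, 22622890 to 22625841, minus strand), a single-exon gene for an adaptor of the complex, had 43.4, 43.4 and 41.0 CPM with siSHIP2, against 30.2, 31.2 and 31.4 CPM with siCT. The siSHIP2 libraries lay well apart from the siCT libraries (log2 0.45, SE 0.075, limma adjusted p = 0.000117). The other 6 core genes, FANCA, FANCC, FANCE, FANCG, FANCL and FANCM, had log2 changes of -0.07 (FANCL, the ubiquitin ligase) to 0.10 (FANCC). Their limma adjusted p ranged from 0.115 to 0.837, but FANCL was called lower with each of the 3 other scalings and both count tests (log2 as low as -0.18). FANCG, for example, had 39.5, 40.3 and 40.3 CPM with siSHIP2, against 39.2, 39.2 and 39.8 CPM with siCT (95% interval of the log2 change -0.09 to 0.13).

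Downstream of the core complex, FANCD2 (chromosome 3, 10026414 to 10101930, plus strand) had 101.6, 89.1 and 91.0 CPM with siSHIP2, against 108.1, 119.5 and 116.6 CPM with siCT. It fell to 81.8% of the control mean, without overlap (log2 -0.29, SE 0.061, limma adjusted p = 0.001). Its partner FANCI, which is ubiquitylated with it, had 170.0, 161.3 and 165.4 CPM with siSHIP2 and 167.7, 167.5 and 165.9 CPM with siCT (log2 -0.01, 95% interval -0.11 to 0.08), and it was called lower with relative log expression scaling alone (limma adjusted p = 0.0499). The interval of FANCD2 was -0.42 to -0.16 on the deposited scale and did not overlap that of FANCI. The helicase gene BRIP1 (FANCJ) had 33.3, 28.1 and 31.6 CPM with siSHIP2, against 25.4, 28.5 and 26.1 CPM with siCT, with overlapping libraries (log2 0.21, SE 0.078, limma adjusted p = 0.0355). The BRIP1 call ended without siCT replicate 1 or 3 or siSHIP2 replicate 1 or 3 (limma adjusted p = 0.0936 to 0.128) and under all 3 other scalings.

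BLM, the helicase that dissolves double Holliday junctions, had 46.1, 42.9 and 40.3 CPM with siSHIP2, against 36.2, 36.0 and 36.4 CPM with siCT. The 3 siSHIP2 libraries lay above the others (log2 0.24, SE 0.067, limma adjusted p = 0.00656), but the call ended with TMM and relative log expression scaling and with both count tests (lowest log2 0.13). RMI1 (log2 0.02) and RMI2 (-0.04), the accessory subunits, were not called.

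At the resection step, NBN, which recruits ATM to breaks, had 104.7, 88.4 and 96.2 CPM with siSHIP2, against 115.3, 118.1 and 116.7 CPM with siCT, with no overlap (log2 -0.28, SE 0.058, limma adjusted p = 0.000816). RAD50, the ATPase that tethers the ends, had 133.1, 128.0 and 127.2 CPM with siSHIP2, against 136.5, 146.3 and 142.2 CPM with siCT (log2 -0.13, SE 0.046, limma adjusted p = 0.028). All siSHIP2 values of RAD50 were below the siCT values, yet the limma adjusted p was 0.0736 to 0.125 without siCT replicate 2 or 3 or siSHIP2 replicate 2 or 3. Of the exonic bases of RAD50, 79.7% overlap AC116366.3 on the same strand or TH2LCRR on the opposite one, and AC116366.3 stood at a similar level (130.0 CPM with siSHIP2 and 143.9 CPM with siCT), so the division of reads between them is uncertain. RBBP8, the resection cofactor CtIP, was at 67.5 ± 2.29 CPM with siSHIP2 and 67.8 ± 1.53 CPM with siCT (SD, n = 3, log2 -0.01).

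Of the checkpoint genes, ATRIP, the partner that brings ATR to single-stranded DNA, had 18.2, 16.2 and 17.4 CPM with siSHIP2, against 22.4, 21.5 and 22.7 CPM with siCT. It fell without overlap (log2 -0.35, SE 0.10, limma adjusted p = 0.0104), while ATR itself was at 94.5 ± 8.28 CPM with siSHIP2 and 96.3 ± 7.37 CPM with siCT (SD, n = 3, log2 -0.03). Exons of TREX1 make up 27.9% of the exonic bases of ATRIP, and TREX1 was at 9.26 CPM with siSHIP2 and 9.51 CPM with siCT (log2 -0.04). ATM, the kinase activated by double-strand breaks, had 92.9, 86.8 and 76.1 CPM with siSHIP2, against 71.1, 78.1 and 75.6 CPM with siCT. These libraries overlapped (log2 0.18, SE 0.067, limma adjusted p = 0.0336), and the call ended without siCT replicate 1 or 3 or siSHIP2 replicate 1 or 2 (limma adjusted p = 0.0641 to 0.155) and under the 3 other scalings. NPAT, a histone gene activator that shares its start region with ATM, also rose, with a log2 change of 0.34 (limma adjusted p = 0.000206). TOPBP1 (-0.05), CHEK1 (-0.03) and CHEK2 (-0.13) were not called on this scale. TOPBP1 and CHEK2 were called lower with each of the 3 other scalings and with both count tests.

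Among the nucleases that cut joined DNA, MUS81 (chromosome 11, 65857126 to 65867653, plus strand) had 28.4, 35.2 and 31.9 CPM with siSHIP2, against 23.0, 22.2 and 24.5 CPM with siCT. The groups did not overlap (log2 0.43, SE 0.076, limma adjusted p = 0.000176). Its partner EME1 had 38.8, 42.5 and 42.4 CPM with siSHIP2 and 42.4, 41.1 and 43.2 CPM with siCT (log2 -0.04, 95% interval -0.17 to 0.10). Opposite-strand exons of CFL1 and EFEMP2 overlap 14.1% of the exonic bases of MUS81. CFL1 stood at 631.9 CPM with siSHIP2 and 587.5 CPM with siCT (log2 0.10, limma adjusted p = 0.0982), and EFEMP2 at 3.25 CPM with siSHIP2 and 0.966 CPM with siCT. The strand setting of the counting is not given in the sources used here, so the part of these neighbours in the overlapping members' values was not tested. SLX4, the scaffold of the nucleases, had 28.4, 30.3 and 26.5 CPM with siSHIP2, against 23.9, 22.5 and 25.2 CPM with siCT. No siSHIP2 value fell within the siCT range (log2 0.24, SE 0.076, limma adjusted p = 0.0151), but the call ended without siCT replicate 2 or siSHIP2 replicate 2 (limma adjusted p = 0.0702 to 0.0744) and under the 3 other scalings.

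**Figure D2:**
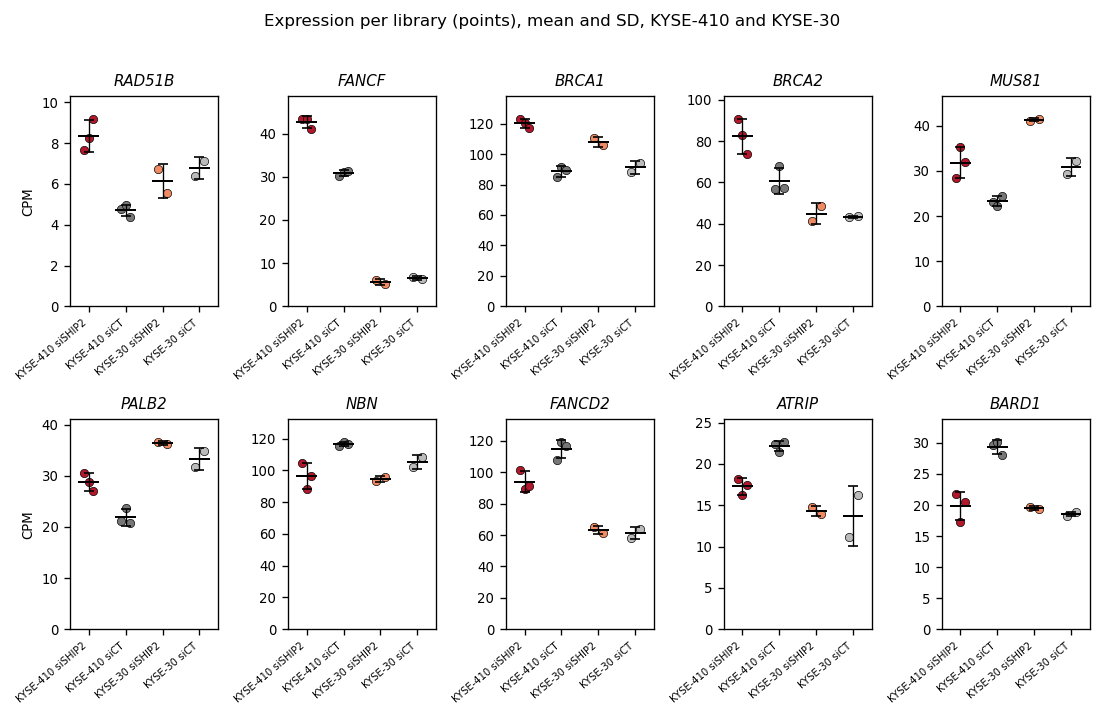
CPM in each library (points) with the group mean and SD for the 10 members whose KYSE-410 call held in the 20 alternatives, from the largest rise (RAD51B) to the largest fall (BARD1). In KYSE-410 the siSHIP2 libraries do not overlap the siCT libraries for any of the 10, which were selected by their calls there. In KYSE-30 the siSHIP2 and siCT libraries overlap for RAD51B, BRCA2, FANCD2 and ATRIP. Over all members, the siSHIP2 libraries lie above for 12, below for 7 and overlap for 18 in KYSE-410. The KYSE-30 counts over all members are 10 above, 4 below and 23 overlapping. How many of all tested genes do not overlap was not counted.

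The same siRNA in KYSE-30 addressed whether another line responds alike. There 3 members rose and 0 fell with limma, 8.11% of the members against 0.811% of all tested genes called higher, and 0% against 1.54% called lower. All 3 stood close to the threshold. MUS81 had 41.1 and 41.5 CPM with siSHIP2, against 29.4 and 32.2 CPM with siCT (log2 0.41, SE 0.093, limma adjusted p = 0.0338). RAD51C had 42.3 and 41.9 CPM with siSHIP2, against 33.3 and 34.2 CPM with siCT (log2 0.31, SE 0.078, limma adjusted p = 0.0488). BRCA1 had 110.5 and 105.7 CPM with siSHIP2, against 88.0 and 94.4 CPM with siCT (log2 0.24, SE 0.062, limma adjusted p = 0.0491). Both siSHIP2 libraries lay above both siCT libraries for each of these genes, which were also called higher in KYSE-410.

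None of the 3 calls held under every alternative. With TMM scaling limma called 0 members (7 higher and 0 lower at an unadjusted p under 0.05), while on the recovered whole numbers edgeR called MUS81, RAD51C and RAD54L but not BRCA1 (edgeR adjusted p = 0.064), and DESeq2 called all 4 of these genes. With KYSE-30 fitted alone limma called 0 members (5 higher and 2 lower at an unadjusted p under 0.05), and MUS81, RAD51C and BRCA1 each had an adjusted p of 0.336 there. None of the 3 was called by limma without any 1 of the 4 KYSE-30 libraries, a fit in which the lone library left is assumed to vary like those of the other groups. The calls also ended without KYSE-410 siCT replicate 1 or 2 or siSHIP2 replicate 3, and for RAD51C and BRCA1 without KYSE-410 siCT replicate 3. Over these fits the limma adjusted p was 0.0504 to 0.273 for MUS81, 0.0597 to 0.302 for RAD51C and 0.0511 to 0.347 for BRCA1. RAD54L was nearest below them, with 80.1 and 71.9 CPM with siSHIP2, against 54.3 and 66.1 CPM with siCT (log2 0.34, SE 0.087, limma adjusted p = 0.0531). It passed without KYSE-410 siSHIP2 replicate 1 or 2 or KYSE-30 siCT replicate 2 (limma adjusted p = 0.0173 to 0.046) and with upper quartile scaling, edgeR and DESeq2. The 37 members were estimated to within a median of 0.18 on the log2 scale (95% half-width), and those not called to within at most 0.27. At an unadjusted p under 0.05 limma had 7 members higher and 1 lower, against 1761 and 1892 of all 20466 tested genes. Those all-gene counts were 1377 and 1745 with TMM scaling, and 1505 and 1329 with KYSE-30 fitted alone. Neither edgeR nor DESeq2 called a member lower (0 each).

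The difference between the lines in the effect of siSHIP2 was tested as an interaction, KYSE-410 minus KYSE-30. It was called for 4 members in the higher and 4 in the lower direction, 10.8% each, against 19.5% and 12.9% of all tested genes. Without KYSE-410 siSHIP2 replicate 1 it was called for 3 and 5 members, against 4342 and 2930 of all tested genes. RAD51B stood out in size: its log2 change was 0.71 in KYSE-410 and -0.12 in KYSE-30, where it had 6.74 and 5.55 CPM with siSHIP2 and 6.40 and 7.14 CPM with siCT (difference 0.84, SE 0.16, limma adjusted p = 0.00107). FANCF differed by 0.64 (SE 0.12, limma adjusted p = 0.000725), since in KYSE-30 it had 6.14 and 5.20 CPM with siSHIP2, against 6.90 and 6.30 CPM with siCT. BARD1 differed by -0.61 (SE 0.12, limma adjusted p = 0.00145), with 19.7 and 19.3 CPM with siSHIP2 and 18.3 and 18.8 CPM with siCT in KYSE-30. XRCC3 differed by -0.41 (SE 0.10, limma adjusted p = 0.0053), with 37.3 and 36.7 CPM with siSHIP2, against 29.8 and 32.5 CPM with siCT in KYSE-30. These 4 calls held in all 19 alternatives to this comparison, and how many of all tested genes held likewise was not counted.

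The other 4 differences were less firm. BRCA2 differed by 0.39 (limma adjusted p = 0.0304) and ATM by 0.34 (limma adjusted p = 0.0211), and both ended under each of the 3 other scalings. Without 1 of 6 libraries the limma adjusted p for BRCA2 was 0.0511 to 0.191, the libraries being KYSE-410 siCT replicate 1 or 3, KYSE-410 siSHIP2 replicate 1, KYSE-30 siCT replicate 1 or 2 and KYSE-30 siSHIP2 replicate 1. For ATM it was 0.053 to 0.0817 without KYSE-410 siCT replicate 1 or any 1 of the 4 KYSE-30 libraries. RAD54L differed by -0.38 (limma adjusted p = 0.0177) and FANCD2 by -0.34 (limma adjusted p = 0.0134). With replicate 1 of either KYSE-30 group left out, siSHIP2 or siCT, they stood at limma adjusted p = 0.113 to 0.117 (RAD54L) and 0.0738 to 0.0752 (FANCD2). On the other scalings the counts were 2 higher and 7 lower (TMM), 2 and 7 (relative log expression) and 2 and 8 (upper quartile). Over all tested genes the higher share of these calls likewise went down, to 42.1%, 44.8% and 44.5%, against 60.3% on the deposited scale. MUS81 (difference 0.02, 95% interval -0.23 to 0.27) and RAD51C (-0.05, -0.26 to 0.16) were not called as different between the lines.

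Both lines were also compared without knockdown, KYSE-410 siCT against KYSE-30 siCT. Of the 37 members 11 were higher and 19 lower in KYSE-410, 29.7% and 51.4%, against 37.2% and 38.7% of all tested genes. The members' median difference was log2 -0.20, against -0.02 over all tested genes. It was -0.12 with TMM and -0.27 with upper quartile scaling, where all tested genes lay at 0.05 and -0.07. This is a contrast of 2 cell lines, so any property of either line is part of it.

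FANCF showed the widest gap, with 30.2, 31.2 and 31.4 CPM in KYSE-410 and 6.90 and 6.30 CPM in KYSE-30 (log2 2.07, SE 0.084, limma adjusted p = 7.84e-13). At the other end RMI2, a subunit of the BLM complex, had 11.2, 11.9 and 11.9 CPM in KYSE-410 and 42.6 and 42.6 CPM in KYSE-30 (log2 -1.78, SE 0.094, limma adjusted p = 2.78e-11). Both sets lay far apart, so that KYSE-410 held 468.2% of the KYSE-30 mean for FANCF and 27.5% for RMI2. ATM had 71.1, 78.1 and 75.6 CPM in KYSE-410 and 36.5 and 36.9 CPM in KYSE-30 (log2 1.01, SE 0.074, limma adjusted p = 2.08e-09). FANCD2 (log2 0.90), RAD52 (0.87), ATRIP (0.68), BARD1 (0.63), CHEK1 (0.54), XRCC3 (0.50) and BRCA2 (0.47) were also higher in KYSE-410.

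Within the core complex the lines differed gene by gene. FANCC, a subunit of the module with FANCE and FANCF, had 36.6, 38.8 and 39.5 CPM in KYSE-410 and 79.0 and 79.7 CPM in KYSE-30 (log2 -1.03, SE 0.059, limma adjusted p = 7.7e-11). FANCE (log2 -0.83), FANCM (-0.55) and FANCL (-0.23) were lower in KYSE-410 too, while FANCA (-0.14, limma adjusted p = 0.113) and FANCG (0.05, limma adjusted p = 0.457) were not called. Both translocases were lower in KYSE-410: RAD54B had 26.8, 27.4 and 26.9 CPM there and 54.4 and 61.2 CPM in KYSE-30 (log2 -1.07), and RAD54L differed by log2 -0.82. CHEK2 (-0.74), PALB2 (-0.58), XRCC2 (-0.55), RAD51C (-0.47), RAD51B (-0.45), FANCI (-0.39), MUS81 (-0.39), EME1 (-0.36), BLM (-0.31) and BRIP1 (-0.27) were lower in KYSE-410 as well. BRCA1 (-0.04), RMI1 (-0.08), RBBP8 (-0.05), RAD50 (-0.09) and RAD51D (0.07) were not called. Calls that depended on 1 library were ATR (0.23, limma adjusted p up to 0.15 without KYSE-410 siCT replicate 2 or KYSE-30 siCT replicate 1) and SLX4 (-0.30, 0.0518 without KYSE-30 siCT replicate 1). The same held for FANCL (0.0757) and TOPBP1 (-0.20, 0.064) without KYSE-30 siCT replicate 2. With TMM scaling 16 members were lower, since FANCL, TOPBP1 and BRIP1 (limma adjusted p = 0.0947) were not called, and with upper quartile scaling ATR and NBN were not called while FANCA and RAD50 were called lower. NBN (0.15) stood at limma adjusted p = 0.0547 to 0.253 without any 1 of 7 libraries, among them each of the 3 KYSE-410 siCT libraries and KYSE-30 siCT replicate 1.

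**Figure D3:**
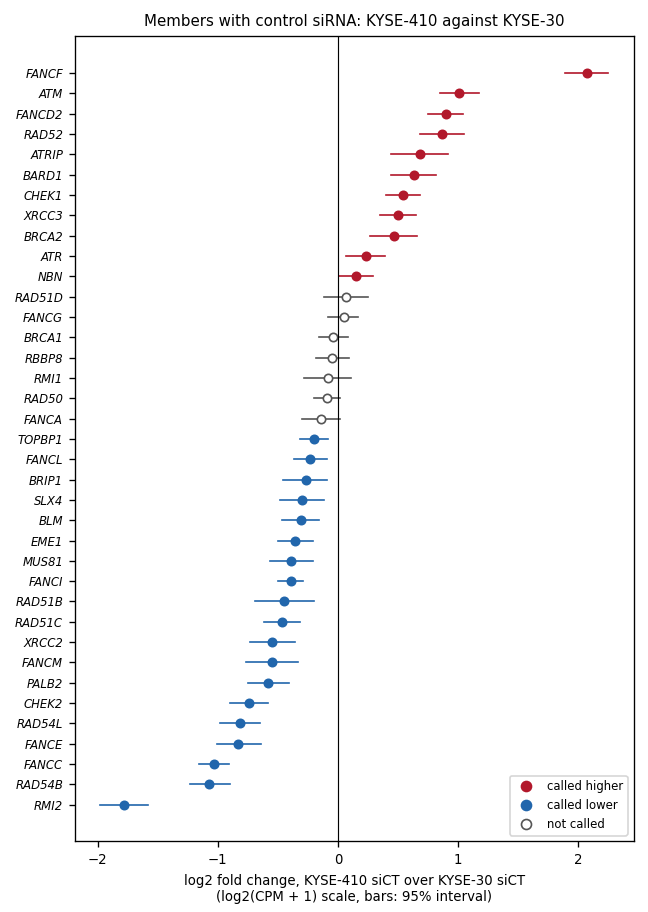
Log2 fold change of KYSE-410 siCT over KYSE-30 siCT for the 37 members, sorted, with 95% intervals. FANCF (2.07) and RMI2 (-1.78) mark the ends, with 11 members called higher, 19 lower and 7 not called.

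Per kilobase of exon, the members spanned a wide range of abundance. With siCT, FANCI was highest in both lines, at 21.5 CPM per exonic kb in KYSE-410 and 28.3 in KYSE-30, followed by FANCL at 20.5 and 24.1. RAD51B was lowest in both, at 0.628 and 0.905 CPM per exonic kb. Between FANCF and FANCD2, KYSE-410 had 10.5 and 13.7 CPM per exonic kb and KYSE-30 had 2.24 and 7.29. The annotated exon total takes in all isoforms, so these levels understate genes with long rarely used exons.

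The wider repair network was described beside the members, from lists that were set by pathway, though with earlier results of these data known. In KYSE-410, 12 of 28 tested other recombination genes rose and 5 fell (median log2 0.13), 10 of 17 other Fanconi and crosslink genes rose and 3 fell (0.18), and 8 of 24 other damage signalling genes rose and 4 fell (0.11). Those shares were 42.9%, 58.8% and 33.3% higher and 17.9%, 17.6% and 16.7% lower. For these and the further KYSE-410 lists below, the background was 30.6% of all tested genes higher and 19.3% lower. With TMM scaling the counts of the 3 lists were 6 and 7, 4 and 4, and 3 and 4, against 4086 and 5293 of all 20466 tested genes. RECQL5, a helicase that restrains recombination, was at 54.2 ± 5.68 CPM with siSHIP2 and 29.6 ± 0.694 CPM with siCT (SD, n = 3, log2 0.85, limma adjusted p = 1.2e-07), and the single-strand binding subunit gene RPA3 rose by log2 0.49. The shieldin and translesion factor gene MAD2L2 rose by 0.61 and WDR48, the cofactor of the FANCD2 deubiquitylase, by 0.48. WEE1, the kinase that restrains mitotic entry, was at 113.6 ± 7.99 CPM with siSHIP2 and 50.1 ± 4.50 CPM with siCT (SD, n = 3, 2.25-fold on the log scale, limma adjusted p = 5.17e-09), and the shieldin gene SHLD2 fell by 0.77.

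Of 12 end joining genes 5 rose and 1 fell in KYSE-410 (3 and 4 with TMM scaling), with the polymerase gene POLM at log2 0.66 and PAXX at -0.36. Expression of cell cycle genes moved in the same libraries: 19 of 20 mitotic genes fell and 0 rose (median -0.48; 20 lower with TMM scaling), with BIRC5 at -1.03 and PLK1 at -0.80. The 20 mitotic genes summed to 2530.9 to 3208.4 CPM with siSHIP2 and 4184.0 to 4353.6 CPM with siCT in KYSE-410. Of 24 S phase genes 9 rose and 6 fell (median 0.05; 4 and 10 with TMM scaling), with PCNA at 0.39 and GINS1 at -0.76, and their sum was 3326.1 to 3455.1 CPM with siSHIP2 and 3250.9 to 3374.0 CPM with siCT. In bulk RNA, fewer cells in a cycle phase and less RNA per cell cannot be told apart, and the part of the cell cycle shift in the members' values was not tested. Marker lists of cell types were called at these rates in KYSE-410: 1 of 4 tested glandular genes rose and 2 fell, 1 of 3 fibroblast genes rose and 2 fell, and 2 of 8 squamous genes rose and 2 fell. The 2 squamous genes that fell were KRT5 (log2 -1.79) and KRT6A (-1.57), and the largest positive change of the 8 was 0.40. Summed squamous markers were higher with siSHIP2, at 572.6 to 608.4 CPM, against 484.9 to 503.8 CPM with siCT. The tested leukocyte genes changed by -0.11 to 0.02 and the endothelial genes by -0.08 to 0.03 on the log2 scale, without a call.

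In KYSE-30, where 0.811% of all tested genes were called higher and 1.54% lower, other recombination genes gave 1 call of 28. It was TONSL, a factor of stalled forks, at 64.0 ± 1.77 CPM with siSHIP2 and 47.8 ± 1.49 CPM with siCT (SD, n = 2, log2 0.42, limma adjusted p = 0.0116). Damage signalling gave WEE1 higher (log2 0.35) and 2 lower genes, among them the ATR activator gene ETAA1 (-0.38). The KYSE-30 calls of WEE1 and ETAA1 ended in 12 and 11 of 20 alternatives, with TMM scaling, the replicate block and the line fitted alone among them. Of the squamous markers 2 of 8 fell, SOX2 (log2 -1.04) and TP63 (-0.55), and their sum was 227.5 to 256.3 CPM with siSHIP2 and 267.8 to 346.5 CPM with siCT. Of the endothelial markers CDH5 fell (-0.61) among 2 tested, and the part of these marker changes in the members' values was not tested. The S phase list had 3 higher and 0 lower of 24 (median 0.10), with RRM2 at 0.37 and E2F1 at 0.45. Of the mitosis list 0 genes were called there by limma (median 0.04, 2 higher and 0 lower at an unadjusted p under 0.05, 0 calls with edgeR or DESeq2), and its sums were 4914.1 to 5067.9 CPM with siSHIP2 and 4626.2 to 4862.5 CPM with siCT. Other Fanconi and end joining genes gave 0 calls with limma, edgeR and DESeq2 in that line, at medians of 0.04 and -0.02. At an unadjusted p under 0.05 limma had 3 higher and 2 lower, and 1 and 0. All tested genes had 1761 higher and 1892 lower at that threshold in KYSE-30.

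**Figure D4:**
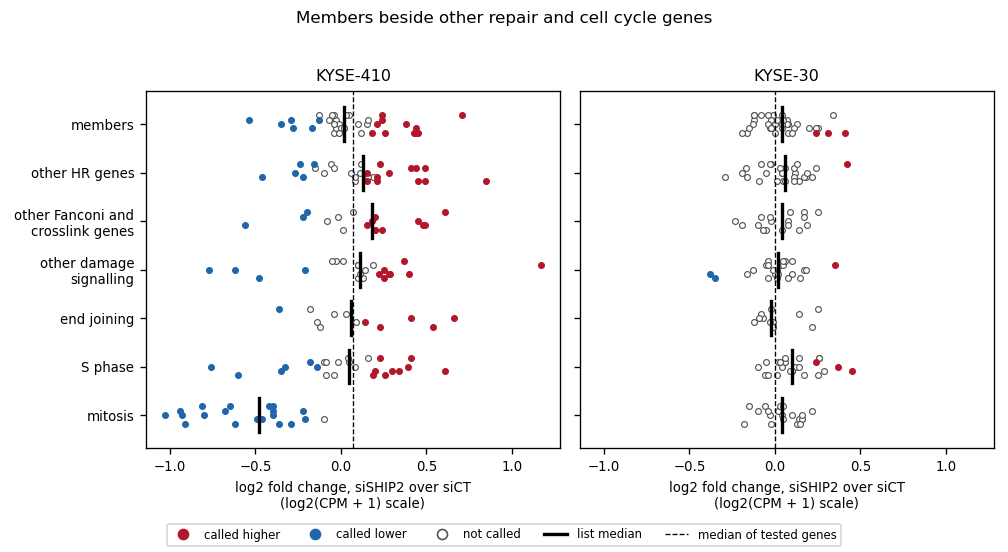
Log2 fold change of siSHIP2 over siCT for the members and 6 other gene lists in KYSE-410 (left) and KYSE-30 (right). Red and blue points are called, black bars are list medians and the dashed line is the median of tested genes: the members' median is 0.02 in KYSE-410, against -0.48 for mitosis.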

How the data were processed

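Total RNA of 2 human esophageal squamous carcinoma lines was sequenced 48 h after siRNA transfection, in 10 libraries. Per the submitters' processing notes, reads were processed with STAR 2.5.3a and HTSeq against hg38. The deposited table holds CPM values the authors made per gene (58302 genes). In all 10 columns the CPM values were whole multiples of about 0.05, and the whole numbers recovered summed to nearly the same total in every library (20011944 in KYSE-410 siCT replicate 1, for example). The original depth is therefore unknown. Floors of 3 such counts (0.15 CPM) concern counting error only, and the size of that error at the original depth is not known.

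From these values log2(CPM + 1) was fitted with limma 3.58.1 (R 4.3.3; lmFit, eBayes with trend) on 4 group means over the 20466 genes that reached 0.5 CPM in 2 or more libraries, with Benjamini-Hochberg adjustment and a threshold of 0.05. The planned test for counts was edgeR; since the values were CPM, limma was used, with edgeR 4.0.16 and DESeq2 1.42.0 on the recovered whole numbers as alternatives (values within 0.1 of a whole number counted as whole, 100% of those up to 100 counts). Other alternatives were scaling, filters, the pseudocount, each line alone, a replicate block and leaving out each library. Scripts were tested on simulated data. Gene positions and exon lengths came from GENCODE 29 and promoters from RefSeq (GRCh38.p14). Figures used matplotlib 3.10.9.

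The members and all gene lists were chosen with earlier results of these data known. Named genes were INPPL1, the members and, of each other list, up to 4 called genes with the smallest adjusted p. KRT5, KRT6A, SOX2, TP63, CDH5 and genes that overlap members were added after their values were seen. No columns of the same group were identical, and sampling noise cannot be given because the original depth is unknown. Some items are not reported here.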

Additional observations from a re-analysis of the deposited data

Results flagged for a closer look

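The effect of siSHIP2 differed between the lines by the interaction test (limma, KYSE-410 minus KYSE-30, adjusted over all tested genes) for the targeted gene INPPL1, at log2 -0.75 (adjusted p = 7.63e-05). The siSHIP2 mean was 37.4% of the siCT mean in KYSE-410 and 62.9% in KYSE-30, and the part of this unequal knockdown in the differences of other genes was not tested.

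Among the members, the difference was higher for RAD51B (0.84), FANCF (0.64), BRCA2 (0.39) and ATM (0.34). It was lower for BARD1 (-0.61), XRCC3 (-0.41), RAD54L (-0.38) and FANCD2 (-0.34). The log2 changes in KYSE-30 included 0.04 for BRCA2, -0.16 for ATM and -0.19 for FANCF.

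In the other lists, the difference was higher for RECQL5 (0.78), RPA3 (0.66), WDR48 (0.67), MAD2L2 (0.36), WEE1 (0.82), ETAA1 (0.66), POLM (0.75) and PCNA (0.25). It was lower for TONSL (-0.58), SHLD2 (-0.64), PAXX (-0.61), GINS1 (-0.66), RRM2 (-0.51), BIRC5 (-1.06) and PLK1 (-0.90). TONSL, ETAA1 and RRM2 were called in both lines with opposite signs on the deposited scale. Of 20 alternatives the calls ended in 3 in KYSE-410 and 11 in KYSE-30 for ETAA1, TMM scaling among them in both lines, in 5 and 4 for TONSL, and in 2 and 3 for RRM2. The limma calls of MAD2L2 and PCNA ended with each of the 3 other scalings.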

How the results depend on the processing

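With limma the 3 members called in KYSE-30 became 0 with TMM scaling, 0 without the filter on low values and 0 with that line fitted alone. They became 1 with relative log expression scaling, 1 with a pseudocount of 0.1 and 1 with the replicate block. At an unadjusted p under 0.05 limma had 7 higher and 0 lower with TMM, 7 and 1 without the filter and 5 and 2 for the line alone, while edgeR called 3 and DESeq2 4. The same unadjusted counts over all tested genes were 1377 higher and 1745 lower with TMM, and 2252 and 2494 without the filter. The 8 members called in the difference between lines became 5 without the filter. Leaving out 1 library at a time gave 13 to 17 members in KYSE-410, 0 to 4 in KYSE-30, 4 to 9 in the difference and 28 to 30 between the siCT groups. Over all tested genes KYSE-30 had 482 calls, against 160 with TMM scaling, 78 without the filter, 236 with the replicate block, 0 with the line alone (1505 higher and 1329 lower at an unadjusted p under 0.05), 481 with edgeR and 615 with DESeq2. Without 1 KYSE-410 library at a time, all tested genes had 8638 to 10384 calls in KYSE-410 and 213 to 812 in KYSE-30. They had 5584 to 7272 in the difference and 14873 to 15720 between the siCT groups. Fits without a KYSE-30 library leave 1 library in a group, so their all-gene counts are not given. Same-numbered deviations from the group means correlated at 0.04, -0.16 and 0.09 in KYSE-410, and differently numbered ones at -0.26 to 0.25. In KYSE-30 the values were -0.12 and 0.12, which mirror each other because each group has 2 libraries. Deviations from means of so few libraries cannot settle whether the numbers pair the libraries. The replicate block called 15, 1, 8 and 29 members. Exchanging the KYSE-30 numbers, an alternative chosen after seeing the data, gave 17, 2, 9 and 29. No member's call reversed in KYSE-410. Original depth is unknown, so counting error at low values such as RAD51B cannot be given.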
